A study of Mus musculus with 6 samples.

Results

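A set of 10 genes of cellular iron handling was followed in cultured mouse hepatic stellate cells, the pericytes of the liver. They were listed by their role in iron handling, with earlier results of these data known: Trf, Tfrc, Steap3, Slc11a2, Slc39a14, Fth1, Ftl1, Ncoa4, Aco1 and Ireb2. All 10 were among the 13341 genes of the deposited table, and 8 of the 10 passed the filter for testing, which asked for a normalized read count of at least 10 in at least 3 libraries. The series set 3 libraries labelled Nbr1 knock-out against 3 libraries labelled wild type. Both groups were unstimulated hepatic stellate cells from liver, kept in culture for 4 days with 10% serum in the medium. NBR1 is an autophagy receptor related to p62, and the series asks what both proteins do to signalling through STING, the adaptor of cytosolic DNA sensing. The labels give no strain, sex or age, and do not say how the knock-out was made or whether the replicates came from separate animals, so p-values measure the spread between these samples. With bulk RNA, fewer cells of one type and less RNA per cell cannot be told apart.

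Iron reaches most cells bound to transferrin, the plasma carrier encoded by Trf, which binds the transferrin receptor encoded by Tfrc and is taken into endosomes. There the iron is reduced by STEAP-family reductases and moved to the cytosol by the transporter DMT1, encoded by Slc11a2; the zinc transporter family member ZIP14, encoded by Slc39a14, imports iron that is not bound to transferrin. Surplus iron is stored in ferritin, a shell of heavy chains (Fth1) and light chains (Ftl1), and NCOA4 carries ferritin to lysosomes when iron is needed. When iron is scarce, the iron regulatory proteins IRP1 (Aco1) and IRP2 (Ireb2) bind a hairpin called the iron-responsive element, which blocks translation of ferritin messages and protects the Tfrc message from decay. In the liver, hepatocytes make most plasma transferrin and store much of the iron.

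The hairpins are shown because they set what a messenger RNA count can show for these genes: one in the 5′ untranslated region acts on translation, which RNA counts do not measure, while those in the 3′ untranslated region act on the amount of RNA. A search of GENCODE M21 coding transcripts (build GRCm38) used a window of 30 bases with the loop CAGTGN, an upper stem of 5 pairs, an unpaired C and at least 3 pairs below it, on the transcript strand. It found a match in an untranslated region of 45 of 21877 coding genes, or 0.206%. Capitals mark the loop, and the order is 5′ to 3′.
Fth1, 5′ untranslated region, chr19:9982731-9982760, plus strand: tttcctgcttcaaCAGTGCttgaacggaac
Ftl1, 5′ untranslated region, chr7:45459779-45459808, minus strand: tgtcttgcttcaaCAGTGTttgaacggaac
Tfrc, 3′ untranslated region, chr16:32631218-32631247, plus strand: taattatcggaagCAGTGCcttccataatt
Tfrc, 3′ untranslated region, chr16:32631597-32631626, plus strand: acattatcgggagCAGTGTcttccataatg
Tfrc, 3′ untranslated region, chr16:32631662-32631691, plus strand: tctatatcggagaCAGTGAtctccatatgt
Tfrc, 3′ untranslated region, chr16:32631709-32631738, plus strand: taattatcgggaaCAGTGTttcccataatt
The ferritin windows shared 27 of 30 bases with each other. The 4 windows of Tfrc shared 18 to 25 of 30 bases among themselves, but 9 to 12 with that of Fth1. The other 7 members held no match to these letters, which is no statement about binding.

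Of the 8 tested members, 1 rose, 0 fell and 7 did not pass. Trf was the gene that rose, to about 4 times its wild-type level. Fth1, Ftl1, Tfrc, Slc11a2, Slc39a14, Aco1 and Ireb2 did not pass the test. Calls rest on limma with Benjamini-Hochberg adjustment over all 10540 tested genes, at 0.05. By that rule 6.92% of all tested genes were called, 4.67% as higher and 2.25% as lower in Nbr1 knock-out cells, so 1 call among 8 is a small count. Trf was also the only member called by edgeR, which called 7.27% of all tested genes, and by DESeq2, which called 9.02%. The median log2 change was 0.04 over the 8 tested members and -0.01 over all tested genes.

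**Figure D1:**
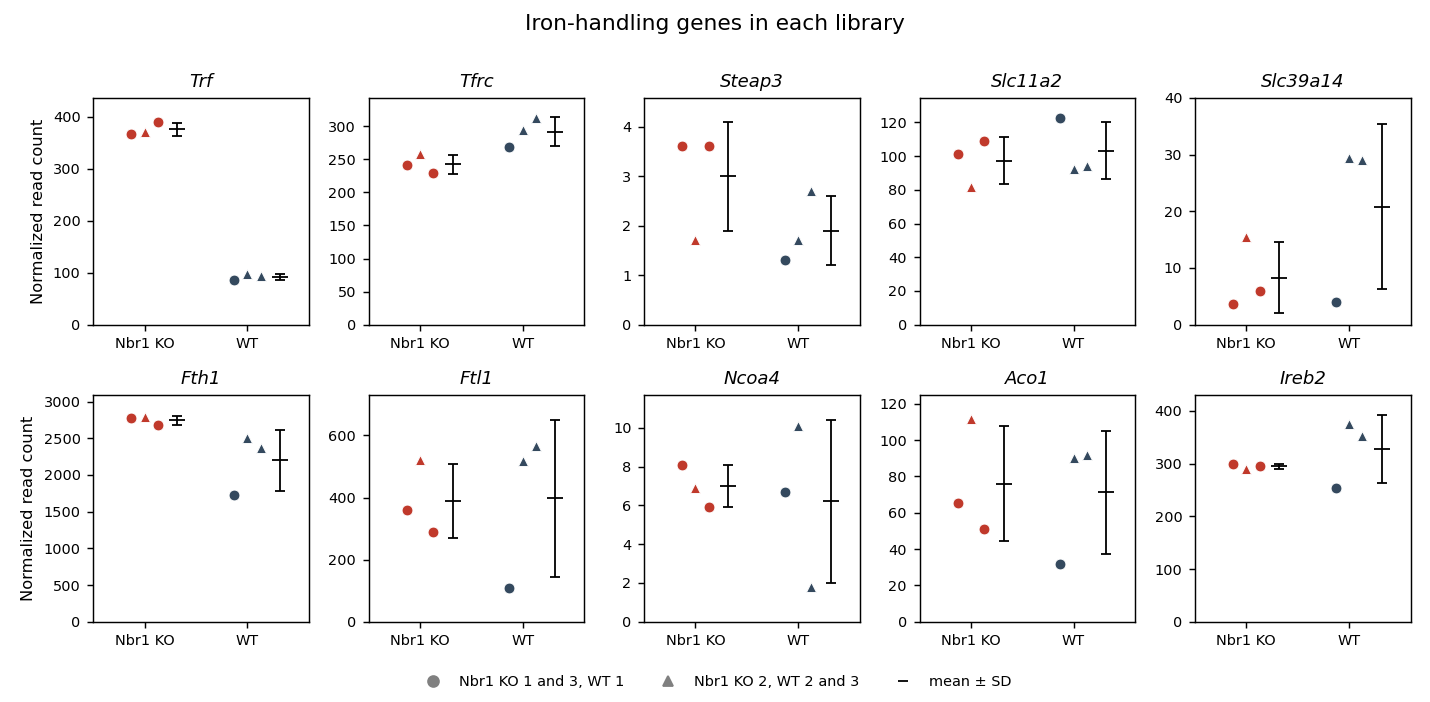
Normalized read count (y axis, linear from 0) of the 10 members in each library, Nbr1 knock-out on the left and wild type on the right of each panel; bars are mean ± SD of 3 libraries. Circles and triangles are the library sets that resembled each other: Trf separates the labelled groups in both, while wild-type library 1 is the lowest point for Fth1, Ftl1, Aco1 and Ireb2.

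The libraries did not sort by label alone. Totals lay between 1508518 and 2383879 reads. Clustering of each library's departure from its group mean gave a first set of wild-type library 1 plus knock-out libraries 1 and 3. The remaining 3 libraries formed the second set. Wild-type library 1 correlated at 0.857 and 0.856 with the other wild-type libraries across the tested genes, and at 0.875 and 0.888 with knock-out libraries 1 and 3. For the tested members, and wherever it changed a call of a gene or list count given here, the value without wild-type library 1 is given too. Nbr1 itself stood at 203.7, 188.2 and 175.6 normalized counts in knock-out libraries 1 to 3, against 204.1, 278.0 and 288.7 in wild-type libraries 1 to 3 (log2 change -0.43, SE 0.18, limma adjusted p = 0.22). The log2 change of Nbr1 without wild-type library 1 was -0.58 and passed (limma adjusted p = 0.0216). With a 3′ assay this level is no check of the labels, as a deletion further upstream could leave the end of the message in place. Sqstm1, the p62 gene, had 817.4, 644.6 and 859.1 in knock-out libraries and 24, 10.9 and 12.7 in wild-type libraries. Its log2 change was 5.59 (SE 0.30, limma adjusted p = 0.000337), so the libraries labelled wild type held little p62 message. Sqstm1 is widely expressed in mouse tissues, and each direction given here rests on the labels.

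Trf had 366.6, 371.3 and 389.2 normalized counts in Nbr1 knock-out libraries 1 to 3, against 85.4, 97.4 and 92.6 in wild-type libraries 1 to 3. The groups lay far apart and each was narrow, at 375.7 ± 11.9 in knock-out cells and 91.8 ± 6.1 in wild-type cells (SD, n = 3 each), a ratio of means of 4.09. The log2 change was 2.02 (SE 0.13, 95% interval 1.70 to 2.34, limma adjusted p = 0.000726). It was 1.97 without wild-type library 1 (limma adjusted p = 0.000183). Within knock-out libraries 1 and 3 and wild-type library 1 it was 2.13, and within the other 3 libraries 1.96. The values rest on 1165 reads in knock-out libraries and 282 in wild-type libraries. At this level Trf ranked above 84.9% of all genes in the table.

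Because transferrin is best known as a hepatocyte product, hepatocyte markers were read beside it. Alb, the albumin gene, had 17.2, 5.2 and 16.6 normalized counts in knock-out libraries and 25.3, 15.1 and 26.3 in wild-type libraries, overlapping between the groups. Of 15 hepatocyte markers 8 had values, and their summed level ran from 23.2 to 75.9 in knock-out libraries and from 57.4 to 71.7 in wild-type libraries, below Trf alone in every library. Of the 2 tested, Alb and Ahsg, 0 passed in any of limma, edgeR and DESeq2, while 0 had an unadjusted p under 0.05. Hnf4a, Apob, Cps1, Cyp2e1, Apoc3, Tat and Ambp had no values that could be analysed here. Of 15 macrophage markers 3 had values, with sums of 16.6 to 27.5 in knock-out and 12.6 to 14.7 in wild-type libraries, and of 11 endothelial markers only Kdr had values, at 8.3 or less. Markers of mesenchymal cells were abundant: the collagen gene Col1a1 had 5168.8 to 5728.3 in knock-out and 2132.3 to 2196.0 in wild-type libraries. Of 17 stellate cell markers, 11 had values and 10 were tested. Of these, 6 rose (Pdgfrb, Lhx2, Hand2, Col1a1, Col1a2 and Acta2), 0 fell and 4 did not pass. Over all tested genes, 4.67% were called higher and 2.25% lower. Without wild-type library 1, 9 of the 10 were higher and 0 lower, where 12.1% and 9.02% of all tested genes were. Pdgfra, Col3a1 and Dcn were added in that fit (limma adjusted p = 0.0121, 0.0179 and 0.0166). Col1a1 and Acta2 kept their calls with each library left out, Pdgfrb lost its call when a knock-out library was left out, and Lhx2, Hand2 and Col1a2 lost theirs without any 1 library other than wild-type library 1 (limma adjusted p up to 0.179). Lhx2 also lost its call under the replicate block (limma adjusted p = 0.0655). Hand2 passed in 8 of 12 alternatives over 6 libraries, and lost its call with chromosome medians removed (limma adjusted p = 0.0925). Lrat, Reln, Des, Rgs5, Ngfr and Hgf, also stellate cell markers, had no values that could be analysed here. Of 8 markers of cholangiocytes and other epithelia, 6 had values, 4 were tested, 2 rose (Sox9 and Cdh1), 1 fell (Spp1) and 1 did not pass (Krt19), and their summed level was 603.3 to 666.9 in knock-out and 146.1 to 168.1 in wild-type libraries. Sox9, a transcription factor gene also active in other cells, had 478.6 ± 15.3 in knock-out and 15.3 ± 5.8 in wild-type libraries (SD, n = 3 each). Cdh1, the E-cadherin gene, had 83.5 ± 21 in knock-out and 6.0 ± 5.2 in wild-type libraries, while Spp1, the osteopontin gene, had 29.9 ± 3.0 in knock-out and 74.6 ± 4.6 in wild-type libraries (SD, n = 3 each). Sox9 kept its call with each library left out (limma adjusted p up to 0.00765). Cdh1 lost its call without knock-out library 1 or 3 (limma adjusted p up to 0.0607). Spp1 lost its call without knock-out library 1 or wild-type library 3 (limma adjusted p up to 0.0749). The keratin genes Krt19 and Krt8 were low in both groups, with means of 33.7 and 0.3 in knock-out and 49.4 and 4.4 in wild-type libraries. The part of these changes in the rise of Trf was not tested.

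By a fixed rule, the 3 genes whose pattern over the 6 libraries was most like that of Trf were Cp (Pearson r = 0.9994 on log2 values), Mmp13 (r = 0.9987) and Crabp1 (r = 0.9984). The libraries shared the same group difference, and 74 tested genes had r above 0.99, so the order among them is a description only. Cp encodes ceruloplasmin, the copper oxidase that readies iron for binding to transferrin. Mmp13 encodes a collagenase and Crabp1 a retinoic acid binding protein.

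Tfrc showed a small difference in the other direction. It had 240.8, 257.8 and 229.0 normalized counts in Nbr1 knock-out libraries and 269.5, 294.8 and 312.3 in wild-type libraries. All knock-out values lay below all wild-type values. Such a gap between groups was present in 3 of the 8 tested members and in 30.1% of all tested genes. The means were 242.5 ± 14.5 in knock-out and 292.2 ± 21.5 in wild-type libraries (SD, n = 3 each), a log2 change of -0.27 (SE 0.13, 95% interval -0.58 to 0.05). It did not pass (limma adjusted p = 0.305), nor without wild-type library 1 (-0.32, limma adjusted p = 0.0948). Genes of chromosome 16, which holds Tfrc, had a median log2 change of 0.40 (335 tested genes). Relative to that median the log2 change of Tfrc was -0.67 and passed (limma adjusted p = 0.0362), in a fit that called 6.16% of all placed genes. Tfrc is known to be high in dividing cells. Of 20 proliferation genes, 4 fell (Ccna2, Ccnb2, Cenpe and Nusap1), 0 rose and 16 did not pass. Over all tested genes, 2.25% were called lower. With chromosome medians removed Ccnb2 kept its call (limma adjusted p = 0.0277) and the other 3 lost theirs (limma adjusted p = 0.106 to 0.337). Under the replicate block only Cenpe passed. Ccna2, Ccnb2 and Nusap1 lost their calls without any 1 library other than wild-type library 1 (limma adjusted p up to 0.214). Cenpe lost its call without knock-out library 1 or 3 (limma adjusted p up to 0.072). Without wild-type library 1 the list had 2 higher and 9 lower, where 12.1% and 9.02% of all tested genes were. The summed level of the 20 genes was 9853.7 to 10239.9 in knock-out libraries and 12285.5 to 12719.8 in wild-type libraries, and their part in the Tfrc value was not tested.

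Slc11a2, the DMT1 gene, had 101.4, 81.6 and 109.2 normalized counts in knock-out libraries and 122.7, 92.4 and 94.4 in wild-type libraries. The groups overlapped, and the log2 change of -0.08 (SE 0.20, 95% interval -0.55 to 0.39) did not pass (limma adjusted p = 0.862). It was 0.05 without wild-type library 1 (limma adjusted p = 0.856). Its forms with and without an iron-responsive element end at different sites, and the table does not separate them. A predicted gene, Gm5475, overlaps Slc11a2 in RefSeq. It had 1.7 to 7.1 in knock-out and 9.2 to 14.7 in wild-type libraries, and reads of both genes cannot be told apart if strand was not used.

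Slc39a14, the ZIP14 gene, had 3.6, 15.5 and 5.9 normalized counts in knock-out libraries and 4.0, 29.4 and 29.1 in wild-type libraries. The values split by library set more than by label: wild-type library 1 was as low as knock-out libraries 1 and 3. Over all libraries the log2 change was -1.04 (SE 0.82, 95% interval -2.99 to 0.92, limma adjusted p = 0.529). Without wild-type library 1 it was -1.90 and passed (limma adjusted p = 0.0433), in a fit where 21.1% of all tested genes passed. Within knock-out libraries 1 and 3 and wild-type library 1 the log2 change was 0.18, and within the other libraries -0.88. Steap3, the endosomal ferrireductase gene best known from red cell precursors, had 9 reads in knock-out and 6 in wild-type libraries (ratio per library scale 1.47, 95% exact binomial interval 0.466 to 5.01, counting error only). It was below the filter, and in a fit with no filter its log2 change was 0.43 (SE 0.44, 95% interval -0.60 to 1.46) and did not pass (limma adjusted p = 0.642).

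**Figure D2:**
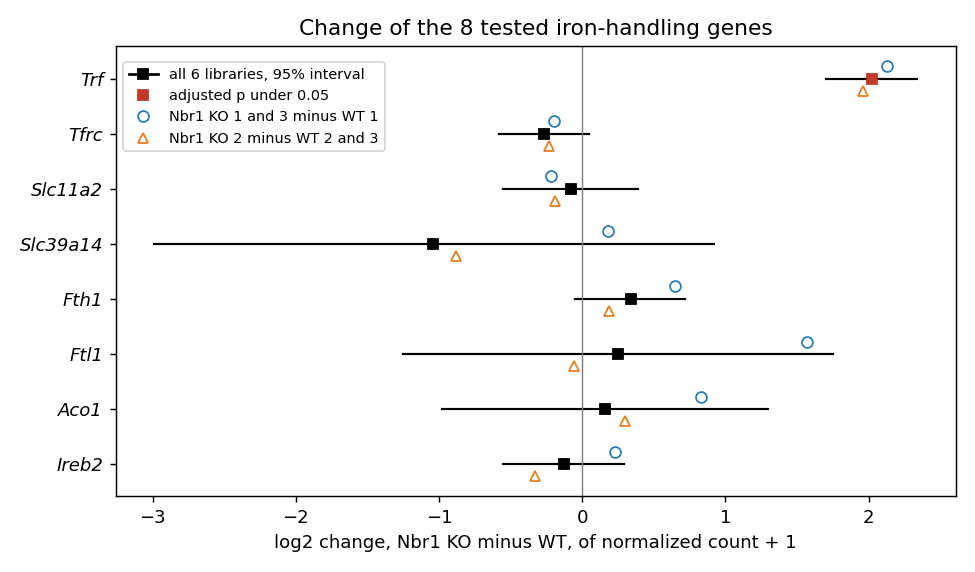
Log2 change (Nbr1 knock-out minus wild type, of normalized count + 1, x axis) of the 8 tested members, with the limma estimate over 6 libraries (squares, red where the adjusted p was under 0.05) and its 95% interval (lines). Open symbols are the differences within each library set: for Trf they are 2.13 and 1.96, for Ftl1 1.57 and -0.06.

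Fth1 was by far the most abundant member. It encodes the heavy chain with the ferroxidase activity, and had 2778.1, 2788.1 and 2677.0 normalized counts in Nbr1 knock-out libraries, against 1731.7, 2510.2 and 2363.4 in wild-type libraries. It ranked above 99.6% of all genes in the table. The knock-out values were tight and lay above every wild-type value, and the widest gap was to wild-type library 1. The means of 2747.7 ± 61.5 in knock-out and 2201.8 ± 413.6 in wild-type libraries (SD, n = 3 each) gave a log2 change of 0.34 (SE 0.16, 95% interval -0.05 to 0.72) that did not pass (limma adjusted p = 0.283). Without wild-type library 1 the log2 change was 0.17 (limma adjusted p = 0.183). With a term for the library sets it was 0.42 and passed (limma adjusted p = 0.0231), in a fit that called 26.5% of all tested genes and whose sets were drawn from these same data.

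Ftl1, the light chain that favours mineral growth, had 360.3, 520.0 and 288.3 normalized counts in knock-out libraries and 108.1, 518.2 and 566.6 in wild-type libraries. Wild-type library 1 lay far below the other wild-type libraries, and the groups overlapped. The log2 change of 0.25 had an SE of 0.63 and a 95% interval of -1.25 to 1.75 (limma adjusted p = 0.863), and it turned to -0.52 without wild-type library 1 (limma adjusted p = 0.139). These data therefore leave differences of more than 2-fold in either direction within the interval. Ferritin genes have processed pseudogenes, and reads could be split among copies. One, Ftl1-ps2, had 20.0 normalized counts in wild-type library 1, where Ftl1 had 108.1. In the other libraries it had 5.0 to 10.7, where Ftl1 had 288.3 to 566.6. The part of split reads in the low Ftl1 value of wild-type library 1 was not tested.

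Reads at the 3′ end do not grow with transcript length, so the chains could be set against each other within a library. Fth1 stood at 7.71, 5.36 and 9.28 times Ftl1 in knock-out libraries 1 to 3, and at 16.0, 4.84 and 4.17 times Ftl1 in wild-type libraries 1 to 3. The log2 ratio averaged 2.86 ± 0.40 in knock-out and 2.78 ± 1.06 in wild-type libraries (SD, n = 3 each). The difference of 0.08 was smaller than the spread of either group (two-sided exact permutation p = 0.9, where 0.1 is the smallest that 3 against 3 allows). Without wild-type library 1 the difference was 0.69, with every knock-out ratio above every remaining wild-type ratio. The two-sided exact permutation p was then 0.2, the smallest that this split allows. The highest ratio was that of wild-type library 1, and the next were those of knock-out libraries 3 and 1.

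Ncoa4, the cargo receptor that delivers ferritin to autophagosomes and so the member closest in kind to NBR1, was at the edge of detection. It had 8.1, 6.9 and 5.9 normalized counts in knock-out libraries and 6.7, 10.1 and 1.8 in wild-type libraries, from 22 and 19 reads in all. The ratio per library scale was 1.13 (95% exact binomial interval 0.585 to 2.21, counting error only), so neither equal levels nor a 2-fold rise lay outside it. In a fit with no filter the log2 change was 0.35 (SE 0.54, 95% interval -0.92 to 1.63) and did not pass (limma adjusted p = 0.768).

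The regulator genes showed no difference that passed. Ireb2 had 299.6, 289.6 and 295.5 normalized counts in knock-out libraries and 253.5, 375.4 and 351.4 in wild-type libraries. The knock-out values lay above wild-type library 1 and below the other wild-type libraries, and the log2 change was -0.13 (SE 0.18, 95% interval -0.55 to 0.29, limma adjusted p = 0.74). It was -0.30 without wild-type library 1 (limma adjusted p = 0.0927), 0.23 within the first library set and -0.33 within the second. Aco1 had 65.2, 111.7 and 51.0 in knock-out libraries and 32, 89.9 and 91.7 in wild-type libraries. It followed the library sets, with its lowest values in knock-out libraries 1 and 3 and wild-type library 1, and its log2 change was 0.16 (SE 0.48, 95% interval -0.98 to 1.30, limma adjusted p = 0.891) and -0.33 without wild-type library 1 (limma adjusted p = 0.459). Fbxl5, which encodes the iron-sensing adaptor that marks IRP2 for degradation, did not pass (log2 change -0.09, SE 0.36, limma adjusted p = 0.922).

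The members were then placed among 78 other genes of iron and haem handling, from 9 lists that also hold the members. Of these, 59 could be tested: 4 rose (Cp, Steap1, Steap2 and Blvrb), 1 fell (Slc39a8) and 54 did not pass. That is close to the 6.92% called among all tested genes. The 59 had a median log2 change of 0.10, against -0.01 over all tested genes. Without wild-type library 1, 9 were higher and 8 lower, where 12.1% and 9.02% of all tested genes were.

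Cp showed the widest difference of the 5 genes called. It had 210.0, 224.3 and 229.0 normalized counts in Nbr1 knock-out libraries and 10.7, 13.4 and 10.9 in wild-type libraries. The means of 221.1 ± 9.9 in knock-out and 11.7 ± 1.5 in wild-type libraries (SD, n = 3 each) gave a ratio of 18.9 and a log2 change of 4.14 (SE 0.19, limma adjusted p = 0.000337), and the call held without each library in turn (limma adjusted p up to 0.00765). Hps3, which overlaps Cp in RefSeq, had 9.1 to 15.5 in knock-out and 13.3 to 25.4 in wild-type libraries, less than the Cp level of the knock-out libraries. Ceruloplasmin is, like transferrin, a plasma protein made mainly by hepatocytes, and the hepatocyte marker values given with Trf apply here too. Of the other export genes, Slc40a1, which encodes the iron exporter ferroportin, had 23.5, 23.2 and 20.2 in knock-out libraries and 18.7, 14.3 and 11.8 in wild-type libraries and did not pass (log2 change 0.57, SE 0.27, limma adjusted p = 0.274).

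**Figure D3:**
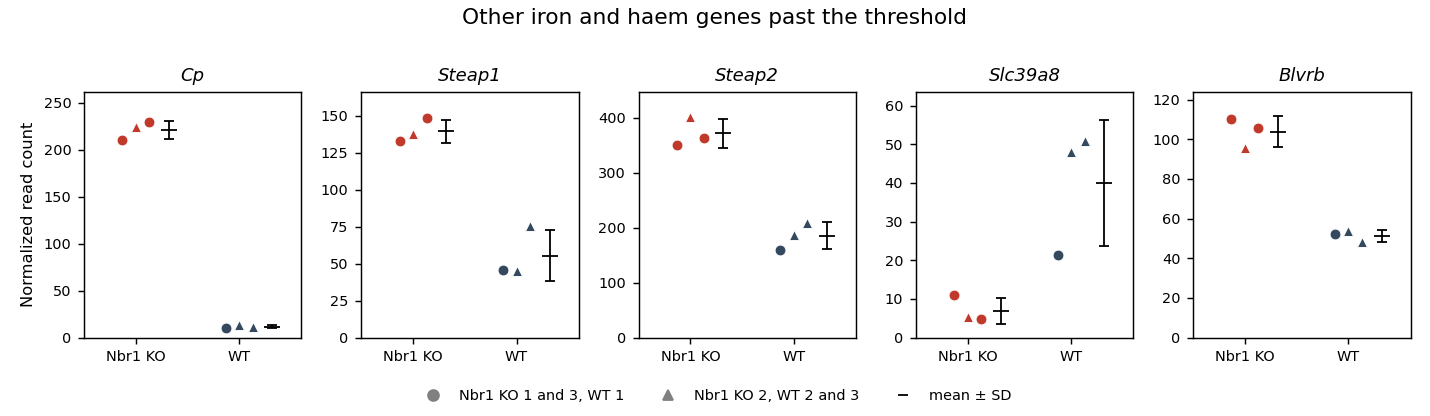
Normalized read count (y axis, linear from 0) of the other iron and haem genes that passed the test, by library, with Nbr1 knock-out left of wild type and bars for mean ± SD of 3 libraries. Cp lies between 210.0 and 229.0 in knock-out and between 10.7 and 13.4 in wild-type libraries, with no overlap in any of the panels.

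Steap1 and Steap2, relatives of Steap3 that are neighbours on chromosome 5, both rose. Steap2, a metalloreductase gene, had 349.4, 401.4 and 363.1 normalized counts in knock-out and 160.1, 187.3 and 208.8 in wild-type libraries (log2 change 1.00, SE 0.15, limma adjusted p = 0.0122). Steap1 had 133.1, 137.5 and 148.3 in knock-out and 45.4, 45.3 and 75.4 in wild-type libraries (log2 change 1.36, SE 0.24, limma adjusted p = 0.0195). Neither group overlapped the other for these genes. Both calls were lost when wild-type library 2, or 1 of the knock-out libraries, was left out (limma adjusted p up to 0.0764 for Steap2 and 0.105 for Steap1). Each is overlapped by a predicted gene in RefSeq, Gm40262 for Steap2 and Gm46900 for Steap1, and Gm46900 had 4.5 normalized counts or fewer.

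Slc39a8 encodes ZIP8, the close relative of ZIP14 that also carries iron, zinc and manganese. It had 10.9, 5.2 and 4.7 normalized counts in knock-out libraries and 21.3, 47.9 and 50.8 in wild-type libraries, from 22 and 129 reads. The log2 change was -2.36 (SE 0.46, limma adjusted p = 0.028). Relative to the median of its chromosome, which was -0.45 for the 504 tested genes of chromosome 3, it was -1.91 and did not pass (limma adjusted p = 0.0598). The call was also lost without any 1 library other than wild-type library 1 (limma adjusted p up to 0.122). Blvrb, which encodes biliverdin reductase B of haem breakdown, had 110.4, 95.4 and 105.6 in knock-out and 52.0, 53.7 and 48.1 in wild-type libraries (log2 change 1.00, SE 0.16, limma adjusted p = 0.016), and lost its call on the same terms (limma adjusted p up to 0.116). Hmox2, the constitutive haem oxygenase gene, missed the threshold at 242.8 ± 17.4 in knock-out and 146.6 ± 24.2 in wild-type libraries (SD, n = 3 each; limma adjusted p = 0.0551). It passed in DESeq2 (adjusted p = 0.0189), under the set term (limma adjusted p = 0.00583) and without wild-type library 1 (limma adjusted p = 0.0212), but not in edgeR (adjusted p = 0.0524) or with chromosome medians removed (limma adjusted p = 0.383). Its inducible relative Hmox1 had 157.5, 141.0 and 160.2 in knock-out and 188.1, 112.5 and 104.4 in wild-type libraries, which overlapped (limma adjusted p = 0.661).

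**Figure D4:**
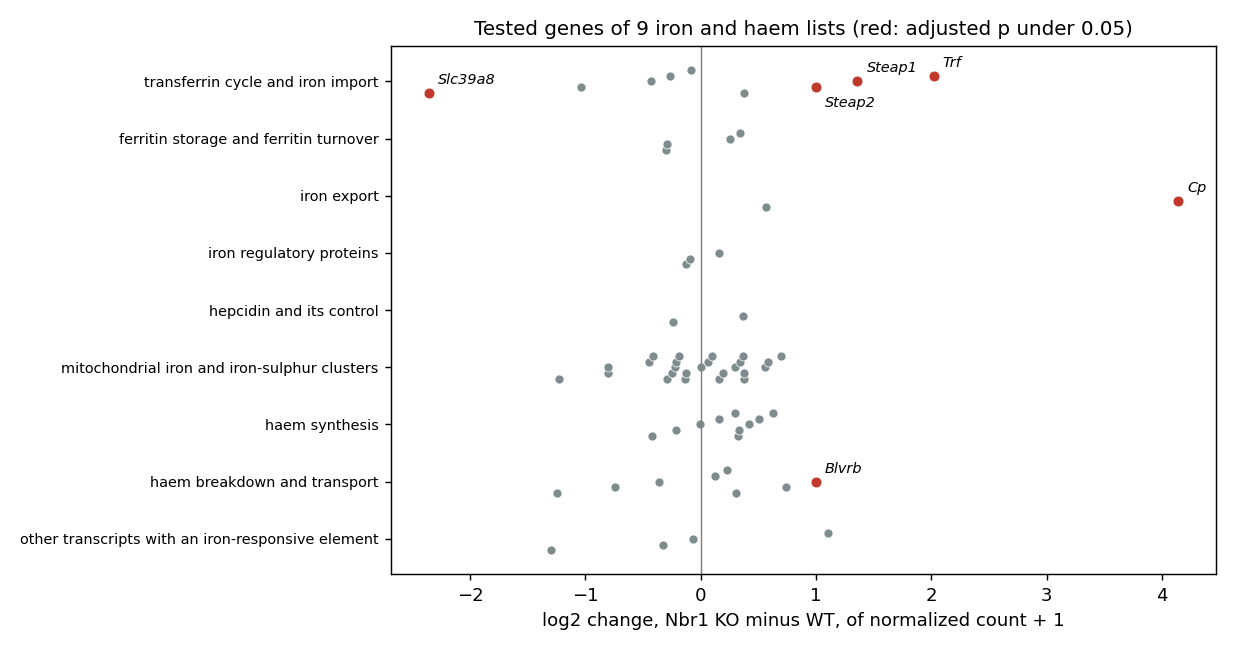
Log2 change (Nbr1 knock-out minus wild type, of normalized count + 1, x axis) of each tested gene in 9 iron and haem lists (rows), members included. Genes past the adjusted p of 0.05 are red and named: Trf, Cp, Steap1, Steap2 and Blvrb to the right of 0 and Slc39a8 to the left.

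The remaining lists held no call in limma over all 6 libraries. Their counts are read against all 10540 tested genes, of which 2379 had an unadjusted p under 0.05. Without wild-type library 1, 12.1% of all tested genes were called higher and 9.02% lower. Of 25 tested genes for mitochondrial iron and iron-sulphur clusters, 0 passed in limma or edgeR, 1 passed in DESeq2 and 1 had an unadjusted p under 0.05; without wild-type library 1, 2 were higher and 2 lower. Of 10 tested haem synthesis genes, 0 passed in any of limma, edgeR and DESeq2, while 2 had an unadjusted p under 0.05, among them Fech, the ferrochelatase gene (375.8 ± 44.5 in knock-out and 244.6 ± 52.2 in wild-type libraries, SD, n = 3 each; limma adjusted p = 0.109). Fech passed without wild-type library 1 (log2 change 0.80, limma adjusted p = 0.0104). With chromosome medians removed its log2 change over 6 libraries was 0.26 and did not pass (limma adjusted p = 0.551). Of 4 tested genes named in the literature for other iron-responsive elements, 0 passed in any of limma, edgeR and DESeq2, while 1, Cdc14a, had an unadjusted p under 0.05. In the fit without wild-type library 1, which called 21.1% of all tested genes, 3 of these 4 passed. Epas1 was higher (log2 change 1.67, limma adjusted p = 0.0216). Cdc14a (-1.72, limma adjusted p = 0.0083) and Cdc42bpa (-0.46, limma adjusted p = 0.0399) were lower. The Epas1 value rests on 3 and 5 reads in wild-type libraries 2 and 3, or 2.5 and 4.5 normalized counts. Wild-type library 1, left out of that fit, had 13.3, within the knock-out range of 11.9 to 15.4. Hamp, the hepcidin gene, had no values that could be analysed here.

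Genes of neighbouring responses were read the same way, beside the 2379 of 10540 tested genes that had an unadjusted p under 0.05. Of 15 tested targets of NRF2, the oxidant-response factor that also drives ferritin genes, 0 passed in any of limma, edgeR and DESeq2, 4 had an unadjusted p under 0.05 and the median log2 change was 0.27. Among them the glutathione synthesis gene Gclm had 173.8 to 248.0 normalized counts in knock-out and 305.1 to 480.3 in wild-type libraries, while the cystine transporter gene Slc7a11 had 12.7 to 16.6 in knock-out and 1.3 to 7.3 in wild-type libraries. With wild-type library 1 left out, 4 of the 15 were higher (Slc7a11, Srxn1, Osgin1 and Pgd) and 1 lower (Mgst1). Over all tested genes that fit called 12.1% as higher and 9.02% as lower. Of 12 tested hypoxia response genes, 0 passed in any of limma, edgeR and DESeq2, 4 had an unadjusted p under 0.05 and the median log2 change was -0.12; without wild-type library 1, 1 was lower (Slc2a1). Of 7 tested genes that guard against or promote ferroptosis, the iron-dependent death by lipid peroxidation, 0 passed in any of limma, edgeR and DESeq2, while 0 had an unadjusted p under 0.05.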

How the data were processed

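RNA of 6 libraries was read with the Lexogen QuantSeq 3′ forward kit from 200 ng (single-end reads of 75 nucleotides), per the labels' protocols. The submitters' processing notes name DESeq2 and build GRCm39; not given in the sources used here are the aligner, the counting and any use of strand or molecular identifiers. The deposited table holds a normalized count signal, in which the authors scaled each library's read counts. Since 100% of values in every library were whole multiples of 1 read (tolerance 0.01), whole reads were recovered for count tests. A filter of at least 10 in at least 3 libraries left 10540 genes.

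Testing was done with limma 3.58.1 (R 4.3.3) with a variance trend on log2(value + 1), two-sided, group as the only term, which understates the change of low genes. Fold changes beside means are ratios of means. The members and lists were chosen with earlier results of these data known. Named genes are the members, Nbr1, Sqstm1, list genes past the threshold or with the smallest p, ferritin relatives and the 3 genes most like each called member. Hps3, Gm5475, Gm46900 and Gm40262 were added for their overlap, Alb, Ahsg, Kdr, Sox9 and the other markers from the marker lists, and Hmox1, Fbxl5 and genes called only without wild-type library 1 after values were seen. Alternatives were pseudocounts of 0.5 and 5, quantile normalization, TMM factors, a minimum mean of 50 or no filter, no trend, the recovered reads in edgeR 4.0.16 and in DESeq2 1.42.0, a replicate block, a term for and values within library sets, chromosome medians removed, and each library left out. Chromosomes came from RefSeq (GRCm38.p6), which placed 10376 of the tested genes. Intervals on reads cover counting error only. Some list genes are not reported here.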

Additional observations from a re-analysis of the deposited data

How the results depend on the processing

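Trf passed in all 12 alternatives over 6 libraries (adjusted p from 1.73e-22 in DESeq2 to 0.00524 with the replicate block) and without each library in turn (up to 0.0128 in limma), with log2 changes of 1.97 to 2.07. The number of members called was 2 with chromosome medians removed (Tfrc added) and with a term for the library sets (Fth1 added), and 1 to 2 when 1 library was left out (Slc39a14 added without wild-type library 1). Among the other iron genes 5 were called, 8 with quantile normalization, 15 under the set term, 3 with the replicate block, and 1 to 17 when 1 library was left out. Over all tested genes the count was 729, or 380 for a mean of at least 50, 476 with the replicate block, 2791 under the set term and 200 to 2228 when 1 library was left out; the share of these called higher was 67.5%, or 53.9% with the set term and 57.3% without wild-type library 1. The log2 change of Ftl1 turned to -0.02 in edgeR and -0.03 in DESeq2, and ran from -0.52 to 0.67 when 1 library was left out. That of Aco1 ran from -0.33 to 0.41 and that of Slc11a2 from -0.17 to 0.05, each reversed without wild-type library 1 and without knock-out library 2. The log2 ratio of Fth1 to Ftl1 differed by 0.08, by 0.14 with Ftl1-ps2 added to Ftl1, and by -0.28 to 0.69 when 1 library was left out; it was 0.08 with the replicate block. The cause of these shifts was not tested. Whether replicate numbers pair the samples cannot be told here: deviations of same-numbered libraries correlated at 0.45, 0.70 and -0.62. Under the replicate block Slc39a8 and Blvrb lost their calls (limma adjusted p = 0.0672 and 0.0572). At this depth Ncoa4 and Steap3, with 22 and 9 reads in knock-out and 19 and 6 in wild-type libraries, entered only the fit with no filter on low values, where neither was called.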
